A study of Drosophila melanogaster with 72 samples.

Results

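The Cpr genes of Drosophila melanogaster encode cuticular proteins with the Rebers-Riddiford sequence, and their symbols give the chromosome section in which each gene lies. All gene symbols that start with Cpr and a digit were taken, which gave 70 of the 15682 genes in the count tables. A filter on low counts passed 34 of them in the age experiment, 38 in the strain day course and 39 in the transgenic day course, and 45 were tested in at least 1 experiment. The other 25 passed it in no experiment, with at most 182 reads over all 72 libraries, and 2 of them, Cpr57A and Cpr65Ax1, had no count at all. All counts of members given for a comparison are over those that passed that filter, not over the whole family.

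Cuticle is built from chitin fibres and the proteins that bind them, and the Rebers-Riddiford sequence is the chitin-binding part of this family. Cuticle is made by the epidermis and by the linings of the trachea, foregut and hindgut, and the corneal lenses of the eye are cuticle too. In flies most of it is laid down at the molts, and adults continue to add layers, which in the furca of the thorax, a site of muscle attachment, form in a daily rhythm.

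RNA was sequenced from tissue labelled skeletal muscle in 72 libraries, in 3 experiments. The age experiment held 18 libraries, 3 each at 1 week and at 6 weeks of age from the parental strain B3 and from O1 and O3, both of which age later. A day course of the same 3 strains held 31 libraries taken at zeitgeber time (ZT, hours of the lighting schedule) 0, 6, 12 and 18, with 3 libraries per strain and time except 2 in B3 at ZT6, O3 at ZT6 and B3 at ZT18 and 1 in O1 at ZT18. A second day course held 23 libraries of mhc>timeless flies, which express the clock gene timeless (tim) under the muscle driver Mhc-Gal4, and of mhc controls with the Mhc-Gal4 transgene, with 3 libraries per genotype and time except 2 in mhc>timeless at ZT0. The age of the flies in the day courses, the hour at which the age libraries were taken, the sex of the flies and whether replicate libraries came from separate animals are not given in the labels, and p-values therefore reflect only how far these libraries spread, which may be technical. Values are CPM, the counts of a gene per 1000000 counts of the scaled library total. Fold changes are on the log2 scale ± SE from edgeR's quasi-likelihood test, and a gene was called at a Benjamini-Hochberg adjusted p under 0.05 over all genes tested.

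Library totals were 15454403 to 35691603 counts in the age experiment, 39516796 to 89955918 in the strain day course and 53114812 to 169987515 in the transgenic one, and 3 counts stood for at most 0.201, 0.0782 and 0.0564 CPM in the 3 experiments. All 16 muscle markers were detected in every group of the age experiment, and markers of other tissues were present beside them, which included gut (3144 to 16327 CPM summed) and trachea (413 to 569 CPM summed). Per library, tim ran from 891 to 1611 CPM in mhc>timeless and from 144 to 817 CPM in mhc, and it was higher in mhc>timeless at each of the 4 times. The counts do not separate the transgene from the fly's own tim. In B3 at 1 and 6 weeks tim was 180 to 294 and 259 to 388 CPM. It was 621 to 784 and 701 to 798 CPM in O1, and 390 to 571 and 654 to 753 CPM in O3. In the strain day course it was 95 to 132 CPM at ZT6 and 914 to 1160 CPM at ZT18. Whether the age groups were taken at different hours was not tested. For members that change over the day, hour cannot be told apart from age or strain in the age experiment. Some libraries stood apart from the rest of their experiment or of their group. The third mhc library at ZT12 and the third mhc>timeless library at ZT18 held 4740 and 6085 CPM of summed photoreceptor markers, against 65.5 to 89.5 CPM in the other 21 transgenic libraries. In the age experiment, summed testis and accessory gland markers reached 656 and 1683 CPM in libraries 1 and 2 of O3 at 1 week. They reached 243 and 161 CPM in libraries 2 and 3 of O1 at 1 week. The remaining young library held 104 CPM for O3 and 11.2 CPM for O1. Old libraries were not free of these markers, with 141, 161 and 76.7 CPM for O1. Those of old O3 held 145, 111 and 31.4 CPM. Fits without the testis-rich libraries leave out only the young libraries named here and keep all old ones. The part of testis content in the age changes was therefore not tested by them.

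A small number of the Cpr genes supplied nearly all of the family's reads. The 8 most abundant took 85.1 to 93.4% of the summed Cpr CPM per library in the age experiment, 85.3 to 93.7% in the strain day course and 86.2 to 92.2% in the transgenic one. Cpr65Au had the highest level in each experiment, with means over the groups of 213, 192 and 288 CPM, and overlaps an antisense RNA gene in the annotation. Cpr67B followed with 71.1, 145 and 118 CPM. The next 6 in the age experiment were Cpr47Ef at 58.5 CPM, the corneal lens protein gene Cpr66D at 54.1 CPM, Cpr49Ae at 51.9 CPM, Cpr62Bb at 41.2 CPM, Cpr73D at 29.5 CPM and Cpr76Bd at 11.2 CPM. Divided by exon length, mean levels in the age experiment were 405 CPM per kb for Cpr65Au, 70.4 for Cpr67B, 49 for Cpr66D, 43.8 for Cpr49Ae, 41.5 for Cpr62Bb, 26.6 for Cpr47Ef, 13.6 for Cpr73D and 2.47 for Cpr76Bd.

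**Figure D1:**
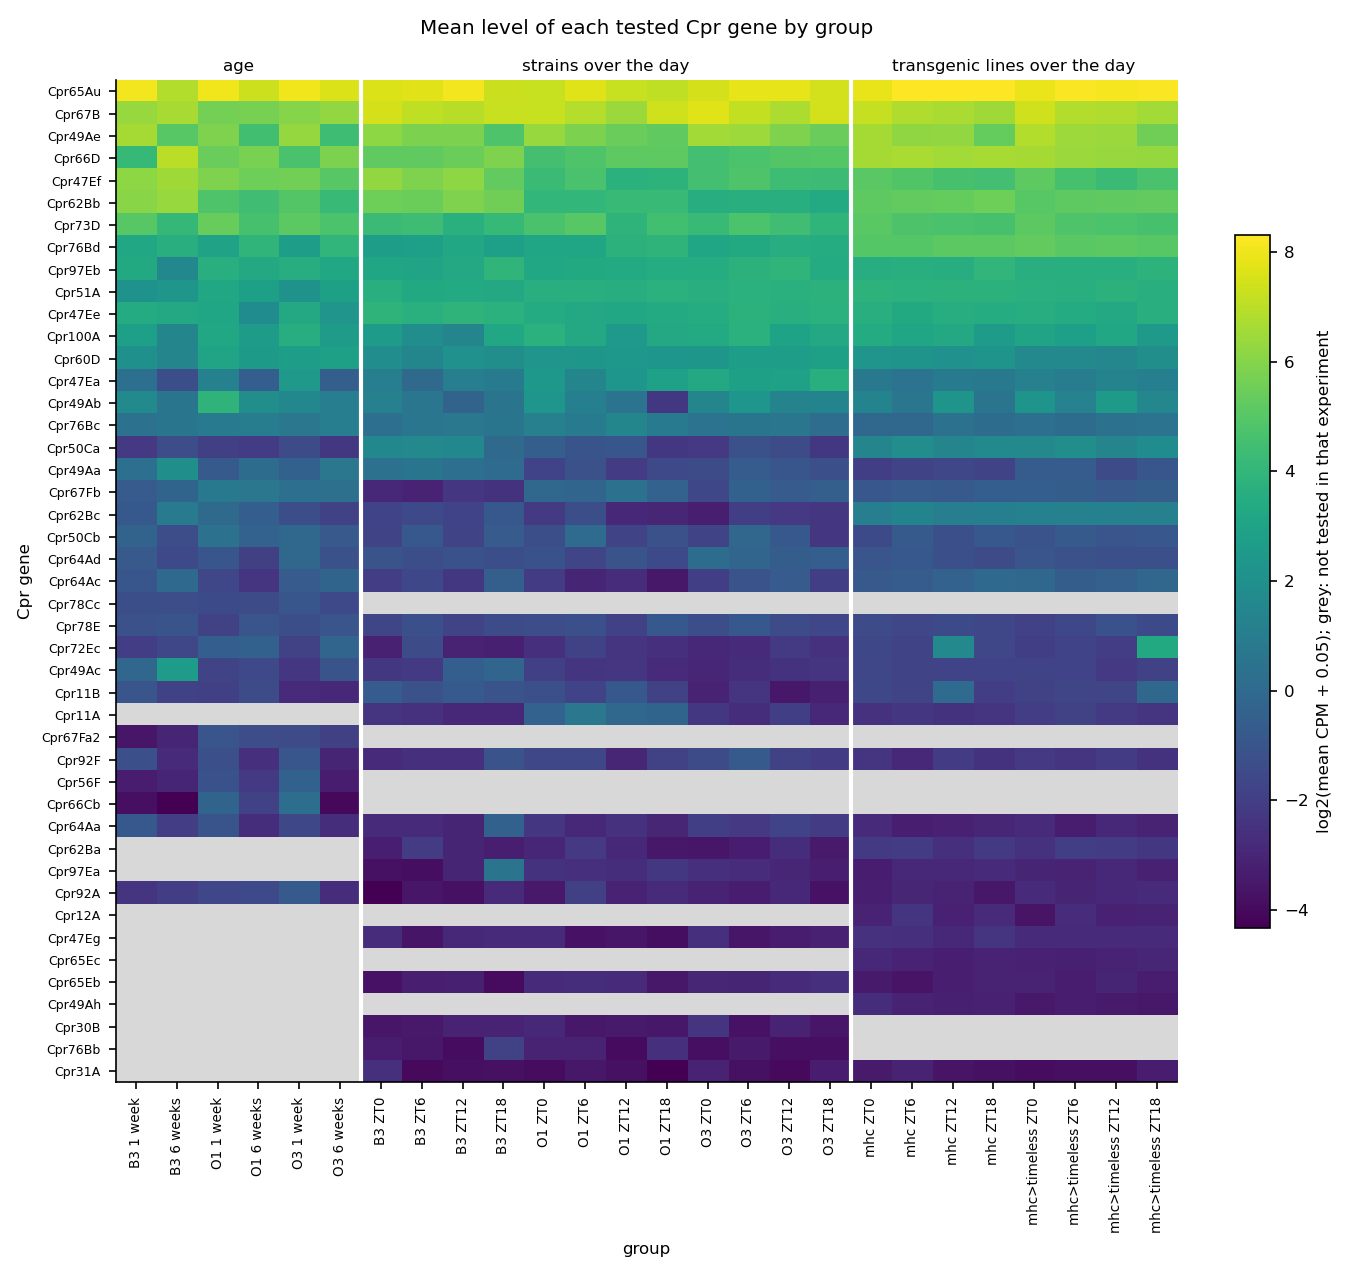
Mean level of every Cpr gene tested in at least 1 experiment (vertical axis) in each group of libraries (horizontal axis), as log2 of the mean CPM plus 0.05, with grey where the gene was not tested. Cpr65Au has the highest mean over the groups of each experiment, though not in every group (Cpr66D reached a mean of 127 CPM in old B3), and most of the 45 genes shown lie far below the top 8.

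The genes lie in groups along the chromosomes, and levels within a group were unequal. The annotation placed 21 of the 70 on arm 2R, 35 on 3L and 5, 5 and 4 on 2L, 3R and X, and 47 of them lay in 14 runs of neighbouring Cpr genes, of which the longest, at 47E and 49A, held 7 each. Up to 2 other protein-coding genes were allowed between neighbours in a run. In the 49A run Cpr49Ae had a mean of 51.9 CPM in the age experiment, while Cpr49Ab, Cpr49Aa and Cpr49Ac had 4.69, 1.48 and 1.38 CPM. In the 47E run Cpr47Ef and Cpr47Ee had 58.5 and 7.9 CPM and Cpr47Ea 1.76 CPM. In the 76B run Cpr76Bd had 11.2 CPM against 1.67 CPM for Cpr76Bc.

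With age, 14 of the 34 tested Cpr genes changed in B3, 10 in O1 and 18 in O3, and most of those changes were falls. In B3, 5 were higher and 9 lower at 6 weeks, which is 14.7 and 26.5% of the members, against 21.8 and 20% of all 12445 genes tested. In O1, 2 were higher and 8 lower (5.88 and 23.5%, against 10.4 and 12.4% of all genes). In O3, 5 were higher and 13 lower (14.7 and 38.2%, against 22.8 and 27.4% of all genes). The median log2 change of the members was 0.17 in B3, -0.38 in O1 and -0.55 in O3, where the medians of all genes lay between -0.03 and 0. Without the testis-rich libraries, a fit that leaves 1 library of O3 at 1 week, 11 members were called in O3, and calls among all genes were 3034 instead of 6238.

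The summed level of all Cpr genes per library was 679 to 715 CPM at 1 week and 618 to 632 CPM at 6 weeks in B3. In O1 it was 618 to 641 CPM at 1 week and 401 to 472 CPM at 6 weeks, and in O3 584 to 671 and 469 to 527 CPM. In no strain did the libraries of the 2 ages overlap. Summed muscle markers were lower in the same libraries: B3 held 44802 to 48390 CPM at 1 week and 27549 to 30704 CPM at 6 weeks, O1 held 40711 to 47083 and 20652 to 21890 CPM, and O3 held 46697 to 53926 and 18038 to 19901 CPM. Summed trachea markers, with 11 genes detected, were 507 to 539 and 483 to 517 CPM in B3, 469 to 569 and 413 to 469 CPM in O1 and 477 to 520 and 445 to 506 CPM in O3. Summed gut markers were 7470 to 10516 and 3144 to 4280 CPM in B3, 12420 to 16327 and 10185 to 12629 CPM in O1, and 6170 to 10874 and 4953 to 11350 CPM in O3. In B3, 8 of the 14 gut markers fell with age, and at 6 weeks 11 were higher in O1 than in B3 and 10 in O3. The part of tissue content in the Cpr changes was not tested, and in bulk tissue fewer cells of a type and less RNA per cell cannot be told apart.

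Cpr66D, one of the corneal lens protein genes, had the smallest p of the members for age in B3. Its B3 levels were 17, 18.4 and 16.6 CPM at 1 week and 123, 132 and 127 CPM at 6 weeks. The old B3 libraries lay far above all others, with means of 127 ± 4.67 CPM and 17.3 ± 0.966 CPM (SD, n = 3 each), a rise of 2.88 ± 0.15 (log2, adjusted p = 2.69e-09). In O3 it went from 29.1, 20.7 and 28 CPM to 53.2, 56.4 and 59.7 CPM, a rise of 1.12 ± 0.14 (adjusted p = 2.96e-05) with no overlap. In O1 the 2 ages overlapped, with 40.8, 52.8 and 34 CPM at 1 week and 58.8, 50.6 and 55.2 CPM at 6 weeks, and the gene was not called. The age change differed from that in B3 by -2.51 ± 0.20 in O1 and -1.75 ± 0.20 in O3, tests that share the B3 libraries. Summed photoreceptor markers gave 155 to 203 CPM in B3 at 1 week and 137 to 242 CPM at 6 weeks. They gave 107 to 310 and 107 to 398 CPM in O1, and 240 to 287 and 189 to 583 CPM in O3. The sum need not mark eye tissue alone. In the 21 transgenic libraries not rich in these markers, norpA by itself held 60.2 to 83.9 CPM, where the sums were 65.5 to 89.5 CPM. The part of eye tissue in the Cpr66D change was not tested.

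Cpr65Au and Cpr49Ae, both among the 8 most abundant, fell with age in all 3 strains. Cpr65Au levels were 268, 282 and 263 CPM in young B3 and 117, 117 and 116 CPM in old B3, a change of -1.22 ± 0.09 (adjusted p = 8.99e-08). The fall was smaller in the delayed-aging strains: O1 went from 255, 276 and 267 CPM to 173, 171 and 138 CPM (-0.73 ± 0.09), and O3 from 255, 250 and 286 CPM to 224, 180 and 194 CPM (-0.40 ± 0.09). Old and young libraries did not overlap in any strain, and the age change differed from that in B3 by 0.49 ± 0.12 in O1 and 0.81 ± 0.12 in O3. Cpr49Ae went from 103, 106 and 86.1 CPM to 35.8, 31.6 and 30.5 CPM in B3, a change of -1.59 ± 0.14. In O1 it changed by -1.38 ± 0.14 and in O3 by -1.92 ± 0.14, again with no overlap, and the difference between strains in its age change was not called. Both genes were also called over the day in B3, O1 and O3, and the hour of the age libraries is not given.

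**Figure D2:**
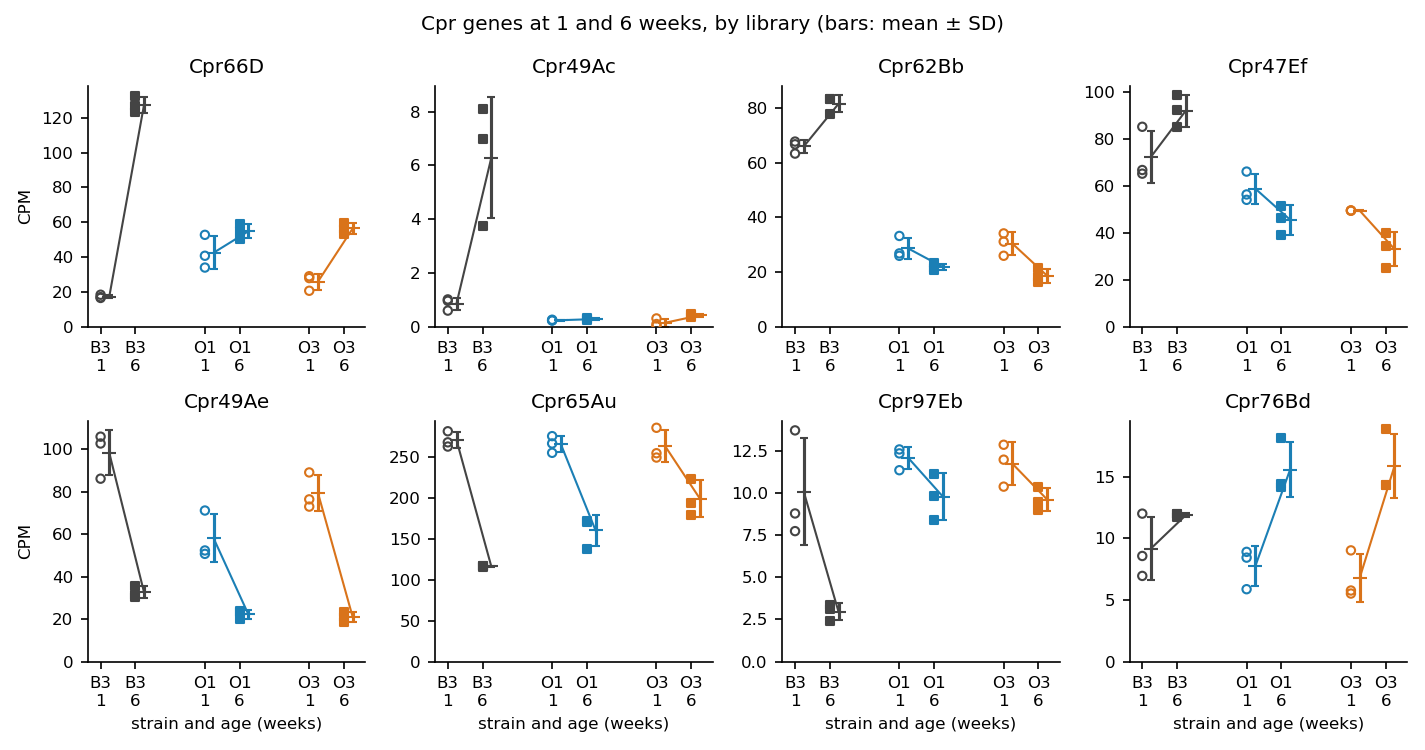
Level in CPM (vertical axes, from 0) of 8 Cpr genes in each library at 1 week (open circles) and 6 weeks (filled squares), with mean ± SD bars for 3 libraries per strain and age. Cpr66D reached 123 to 132 CPM in old B3 and no more than 59.7 CPM in old O1 and O3, while Cpr49Ae and Cpr65Au were lower at 6 weeks in every strain.

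Over the 34 tested members, 5 fell with age in each of the 3 strains, which are Cpr47Ea, Cpr49Ae, Cpr64Aa, Cpr65Au and Cpr73D, and Cpr49Aa rose in each. These are 5 and 1 of 34, where 7.63 and 6.96% of all genes fell and rose in all 3 strains. The Cpr64Aa call was lost without library 3 of B3 at 1 week in B3 and without library 2 of O3 at 1 week in O3 (adjusted p = 0.0647 and 0.0768), and without the testis-rich libraries in O1 and O3 (0.088 and 0.387). Some of these are outside the naming rule and were chosen after their values were seen. Cpr47Ea changed by -1.66, -1.88 and -3.04 in B3, O1 and O3, from 1.17, 2.31 and 5.41 CPM at 1 week to 0.365, 0.624 and 0.655 CPM at 6 weeks. The level of Cpr49Aa was 0.67, 1.48 and 1.33 CPM in young B3 and 3.79, 3.65 and 4.1 CPM in old B3, and its change was 1.72 in B3, 0.95 in O1 and 1.12 in O3. Its O1 call was lost when library 1 or 2 of either age was left out (adjusted p up to 0.153) or the filter on low counts was dropped (0.0607), and its O3 call without library 2 at 1 week (0.0525). Without the testis-rich libraries both calls were lost as well (adjusted p = 0.0995 in O1 and 0.172 in O3).

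Cpr73D changed by -0.94, -0.72 and -0.38 in B3, O1 and O3, and its O3 call was lost without library 3 of O3 at 1 week (adjusted p = 0.0507). It overlaps Nc73EF on the opposite strand, a gene for a subunit of the 2-oxoglutarate dehydrogenase complex with a mean of 4216 CPM in the age experiment against 29.5 CPM for Cpr73D. Nc73EF changed in the same directions, by -2.0, -0.55 and -0.58. The sources used here do not state whether counting used strand, and the extent of the overlap was not measured. Whether reads of 1 gene of this pair were counted for the other is therefore not known.

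In other members the strains differed in direction or in which of them changed. Cpr62Bb was 66.8, 63.4 and 67.8 CPM in young B3 and 83.4, 78 and 83.3 CPM in old B3, a rise of 0.31 ± 0.11 (adjusted p = 0.0407). That call was lost in 5 of the 6 fits that left out a B3 library, all but the one without library 3 at 1 week, with adjusted p up to 0.121. In O1 Cpr62Bb fell by 0.39 from 26, 26.9 and 33.2 CPM to 21.6, 23.2 and 20.9 CPM, and in O3 by 0.71 from 31.2, 26 and 34.2 CPM to 21.5, 18.1 and 16.5 CPM. The O1 call was lost without library 3 at 1 week or library 1 or 3 at 6 weeks (adjusted p up to 0.123) and without the testis-rich libraries (0.12). The age change differed from that in B3 by -0.70 ± 0.16 in O1 and -1.01 ± 0.16 in O3.

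Cpr97Eb gave the opposite picture, with a fall in B3 from 8.78, 7.73 and 13.7 CPM to 3.38, 3.11 and 2.39 CPM (-1.77 ± 0.19). It was not called in O1 or O3, and its age change differed from that in B3 by 1.46 ± 0.27 and 1.48 ± 0.27. Cpr49Ac rose in B3 from 0.603, 0.967 and 1.02 CPM to 8.09, 3.76 and 6.98 CPM, a change of 2.85 ± 0.49 with no overlap. In O1 it stayed between 0.236 and 0.34 CPM at both ages, and the age change differed from that in B3 by -2.62 ± 0.70, a call lost in 5 of 12 fits that left out 1 library (adjusted p up to 0.059). Its rise in O3 of 1.46 ± 0.50, to at most 0.479 CPM, was lost in 4 of 6 such fits (adjusted p up to 0.0775).

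Cpr76Bd rose in the delayed-aging strains, from 8.91, 5.88 and 8.45 CPM to 18.1, 14.2 and 14.4 CPM in O1 (1.01 ± 0.23) and from 5.53, 5.78 and 9.03 CPM to 18.8, 14.4 and 14.4 CPM in O3 (1.22 ± 0.23). In B3 it was 8.58, 6.96 and 12 CPM at 1 week and 11.7, 12 and 12 CPM at 6 weeks and was not called, and a difference between strains was not called either. Its O1 call was lost without the testis-rich libraries (adjusted p = 0.0565). Cpr47Ee fell in O1 by 1.28 and in O3 by 1.05, and Cpr47Ef fell in O3 by 0.58 from 49.5, 49.4 and 49.5 CPM to 39.8, 25.2 and 34.4 CPM, a call lost without the testis-rich libraries (adjusted p = 0.0844). Cpr67B, the second most abundant member, was not called with age in any strain.

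In all, 8 members differed in their age change between O1 and B3 and 9 between O3 and B3. These are 23.5 and 26.5% of the members, where 14.3 and 17.6% of all genes were called. Beside the genes above, Cpr62Bc, the neighbour of Cpr62Bb, differed by -2.42 and -2.41 with B3 levels of 0.515 and 1.81 CPM at 1 and 6 weeks, the latter not called without the testis-rich libraries (adjusted p = 0.0828). Cpr47Ef differed by -0.71 and -0.92, with old B3 libraries at 84.9, 92.3 and 98.6 CPM. Its O1 call was lost in 9 of the 12 fits that left out 1 library (adjusted p up to 0.0956), without the filter on low counts (0.0501) and without the testis-rich libraries (0.0819).

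Between strains at 1 week, 11 of 34 members differed between O1 and B3 and 11 between O3 and B3. In O1, 6 were higher and 5 lower (17.6 and 14.7%, against 10.3 and 13.5% of all genes), and in O3, 7 were higher and 4 lower (20.6 and 11.8%, against 19.3 and 16.7%). Both counts were 6 without the testis-rich libraries, where 23.1 and 19.4% of all genes were called, a fit in which each group of the delayed-aging strains holds 1 library that is assumed to vary like the others. At 6 weeks, 18 members differed in O1, 8 higher and 10 lower (23.5 and 29.4%, against 19.8 and 24.5% of all genes), and 14 in O3, 6 higher and 8 lower (17.6 and 23.5%, against 20 and 20.2%).

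The strain difference of Cpr66D changed direction with age. At 1 week it was higher than in B3 by 1.30 ± 0.14 in O1 and by 0.58 ± 0.14 in O3, and at 6 weeks lower by -1.22 ± 0.14 and -1.17 ± 0.14. None of these groups overlapped with B3. Cpr62Bb was lower than in B3 at both ages, by -1.20 ± 0.11 in O1 and -1.12 ± 0.11 in O3 at 1 week and by -1.90 ± 0.12 and -2.13 ± 0.12 at 6 weeks. Cpr60D was higher at both, by 1.06 and 0.79 at 1 week and 1.14 and 1.42 at 6 weeks, with 3.28, 4.13 and 4.39 CPM in young B3 against 8.26, 8.11 and 8.33 CPM in young O1 and 6.7, 7.17 and 6.55 CPM in young O3. Its libraries in the delayed-aging strains lay above all B3 libraries at both ages.

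Over the day course, 21 of 38 members differed between O1 and B3 and 20 between O3 and B3, which share the B3 libraries. In O1, 10 were higher and 11 lower (26.3 and 28.9%, against 28.6 and 27.6% of all 12295 genes), and in O3, 11 were higher and 9 lower (28.9 and 23.7%, against 31.3 and 29.4%), so the shares lay near those of all genes. Of the called members, 6 of 21 in O1 and 5 of 20 in O3 had no overlap between the libraries of the 2 strains, against 28.5 and 26.2% of all genes called. Cpr62Bb was the member with the smallest p in both: its 10 B3 libraries lay between 34.5 and 59.5 CPM, with B3, O1 and O3 means over the 4 times of 48.7, 17.5 and 11.7 CPM, and differences of -1.48 ± 0.09 and -2.05 ± 0.08 (adjusted p = 2.69e-12 and 9.4e-16). No O1 or O3 library reached the lowest B3 library.

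Cpr47Ea showed the opposite order, with B3, O1 and O3 means of 1.75, 5.06 and 9.11 CPM, higher by 1.5 ± 0.10 and 2.41 ± 0.10 and without overlap with B3. It overlaps the odorant receptor gene Or47a on the opposite strand, whose means were at most 0.0797 CPM in any experiment. Its neighbour Cpr47Ef was lower, with means of 60.9, 18.2 and 23.2 CPM in the same order, by -1.75 ± 0.16 and -1.36 ± 0.14. Cpr50Ca was lower by -2.54 ± 0.24 and -3.19 ± 0.21, with 2.46, 0.43 and 0.262 CPM, and Cpr67Fb higher by 3.13 ± 0.23 and 2.33 ± 0.22, with 0.108, 0.927 and 0.552 CPM. Cpr67Fb overlaps an antisense RNA in the annotation. Cpr11B was lower in O3 by -2.82 ± 0.31, at 0.0742 against 0.487 CPM, and Cpr11A higher in O1 by 3.14 ± 0.48, at 0.991 against 0.107 CPM, with 0.14 to 2.89 CPM among the 3 O1 libraries of ZT6.

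Of the 30 members tested in both strain experiments, Cpr60D, Cpr67Fb and Cpr73D were higher in O1 than in B3 at 1 week, at 6 weeks and over the day, and Cpr49Aa, Cpr49Ac, Cpr62Bb and Cpr67B were lower in all 3. For O3 against B3 Cpr60D and Cpr100A were higher in all 3, and Cpr47Ef, Cpr49Ac and Cpr62Bb were lower in all 3. Of all genes tested in both experiments, 5.91 and 9.22% were higher and lower in all 3 for O1, and 7.7 and 10% for O3. The age and day comparisons use different libraries of each strain. Nc73EF, which overlaps Cpr73D and may share reads with it, was also higher in O1 in all 3, by 0.41, 1.85 and 0.21. The O1 calls at 1 week of Cpr67B, Cpr67Fb, Cpr49Aa and Cpr49Ac were lost without the testis-rich libraries (adjusted p = 0.368, 0.242, 0.0799 and 0.0504), as were the O1 call of Cpr73D (0.18, and 0.0575 without the filter on low counts) and the O3 calls of Cpr100A and Cpr47Ef (0.0603 and 0.142). With 1 library left out, the O1 calls at 1 week of Cpr73D, Cpr49Aa and Cpr49Ac were lost in 5, 4 and 4 of 6 fits (adjusted p up to 0.137, 0.0972 and 0.0638), and that of Cpr67Fb at 6 weeks in 4 of 6 (up to 0.124). The O3 calls at 1 week of Cpr100A and Cpr47Ef were lost in 2 and 1 of 6 fits (up to 0.0847 and 0.066). The O1 calls over the day of Cpr73D and Cpr49Ac were lost without library 3 of B3 at ZT6 and library 2 of B3 at ZT12 (0.0587 and 0.117), and that of Cpr49Ac without ZT18 (0.253). Cpr65Au did not keep 1 direction: it was higher in old O1 than in old B3 by 0.46 ± 0.09 and lower in O1 over the day by -0.38 ± 0.05.

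**Figure D3:**
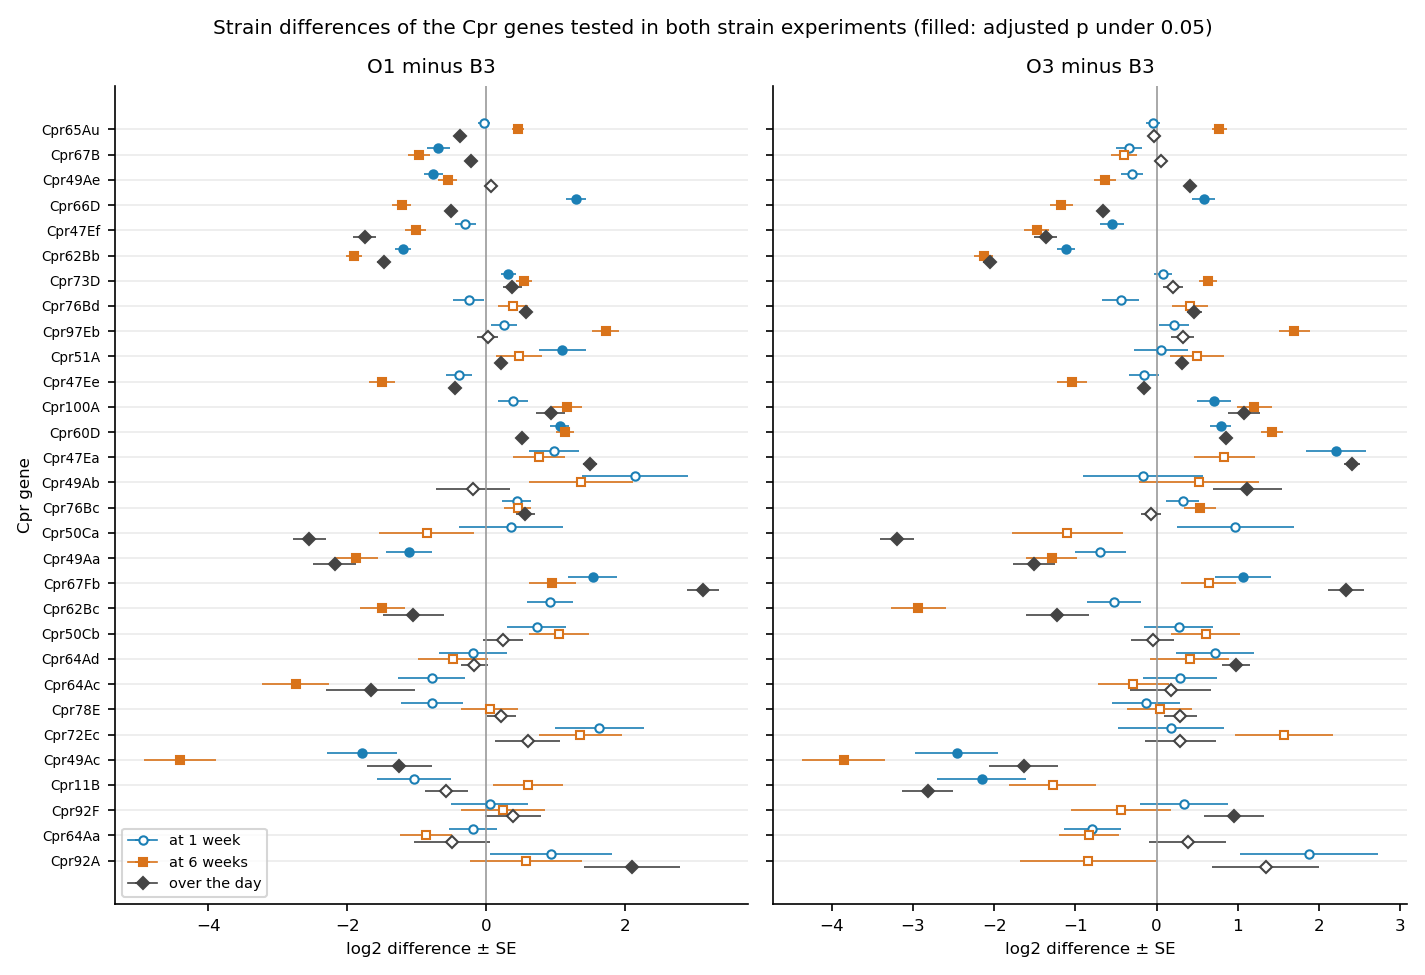
Log2 difference ± SE (horizontal axes) from B3 of O1 (left) and O3 (right) for the 30 Cpr genes tested in both strain experiments (vertical axis), at 1 week, at 6 weeks and over the day, with filled symbols for adjusted p under 0.05. Cpr62Bb lies left of 0 and Cpr60D right of 0 in all 6 comparisons, while Cpr66D lies right of 0 at 1 week and left of 0 in the others.

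Over the hours of the day, 9 of 38 members were called in B3, 8 in O1 and 6 in O3. These are 23.7, 21.1 and 15.8% of the members, against 11.2, 10.9 and 17% of all genes. In the transgenic day course 6 of 39 members were called in mhc and 4 in mhc>timeless, which is 15.4 and 10.3%, against 22.6 and 19.1% of all genes. Cpr49Ae and Cpr67B were called in all 5 lines, which is 2 of the 36 members tested in all 5, where 2.52% of all genes were called in all 5.

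Cpr49Ae was highest at ZT0 and lowest at ZT18 in every line. In B3 it was 77.2, 67.6 and 66.9 CPM at ZT0, 63.2 and 51.3 CPM at ZT6, 55.1, 52.6 and 60.1 CPM at ZT12 and 27.3 and 28.9 CPM at ZT18. The ZT18 libraries lay below all others, and the ratio of the highest to the lowest mean was 2.51 (adjusted p = 2.24e-07). The B3 call rests on ZT18: without that time the adjusted p was 0.0732. In O1 the means went from 82.2 CPM at ZT0 to 38 CPM in the single library of ZT18, and in O3 from 94.4 to 42.3 CPM. In mhc they went from 96.1 ± 14.3 CPM to 39.8 ± 2.93 CPM (SD, n = 3), and in mhc>timeless from 122 and 109 CPM to 49.2, 52.3 and 43 CPM. The ratios in these 4 lines were 2.17, 2.23, 2.41 and 2.40, with adjusted p at most 1.64e-06.

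Cpr67B had its highest mean at ZT0 in 4 of the 5 lines, and its lowest at ZT12 in the strains and at ZT18 in the transgenic lines. In O3 it was 210, 208 and 201 CPM at ZT0, 130 and 151 CPM at ZT6, 100, 108 and 110 CPM at ZT12 and 167, 182 and 174 CPM at ZT18. In O1 it ran from 78.8 to 87.4 CPM at ZT12 to 166 CPM in the single ZT18 library. The mhc libraries instead held 149, 164 and 132 CPM at ZT0 and 99.9, 90.6 and 85.6 CPM at ZT18, and the mhc>timeless libraries 158 and 183 CPM and then 89, 91.5 and 101 CPM. At ZT18 the strains thus lay above their own ZT12 means and the transgenic lines below, a difference between experiments that was not tested.

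Cpr65Au was called in 4 lines, with its lowest mean at ZT18 in the strains and its highest in B3 at ZT12. The B3 libraries held 272, 260 and 290 CPM at ZT12 and 143 and 172 CPM at ZT18, and the O1 libraries 141, 169 and 146 CPM at ZT12 and 220, 213 and 184 CPM at ZT6. In mhc its lowest mean was at ZT0, with 243, 227 and 238 CPM, and 417, 288 and 246 CPM at ZT18 (adjusted p = 0.0423). The mhc call was lost in 9 of 12 fits that left out 1 library, each library of ZT0, ZT6 and ZT12 in turn, with adjusted p up to 0.156, and without the photoreceptor-rich libraries (0.0666). Among the 3 strains, Cpr65Au and Cpr49Ae differed in their course over the day (adjusted p = 0.0176 and 0.0297), which is 2 of 38 members (5.26%) against 1.94% of all genes. The Cpr65Au call was lost without the third B3 library of ZT12 (0.0501), and the Cpr49Ae call without any 1 of 5 libraries, which were libraries 1 and 3 of B3 at ZT12, library 2 of B3 at ZT18, library 1 of O1 at ZT12 and library 3 of O3 at ZT6 (up to 0.083), and without ZT18 (0.0733).

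**Figure D4:**
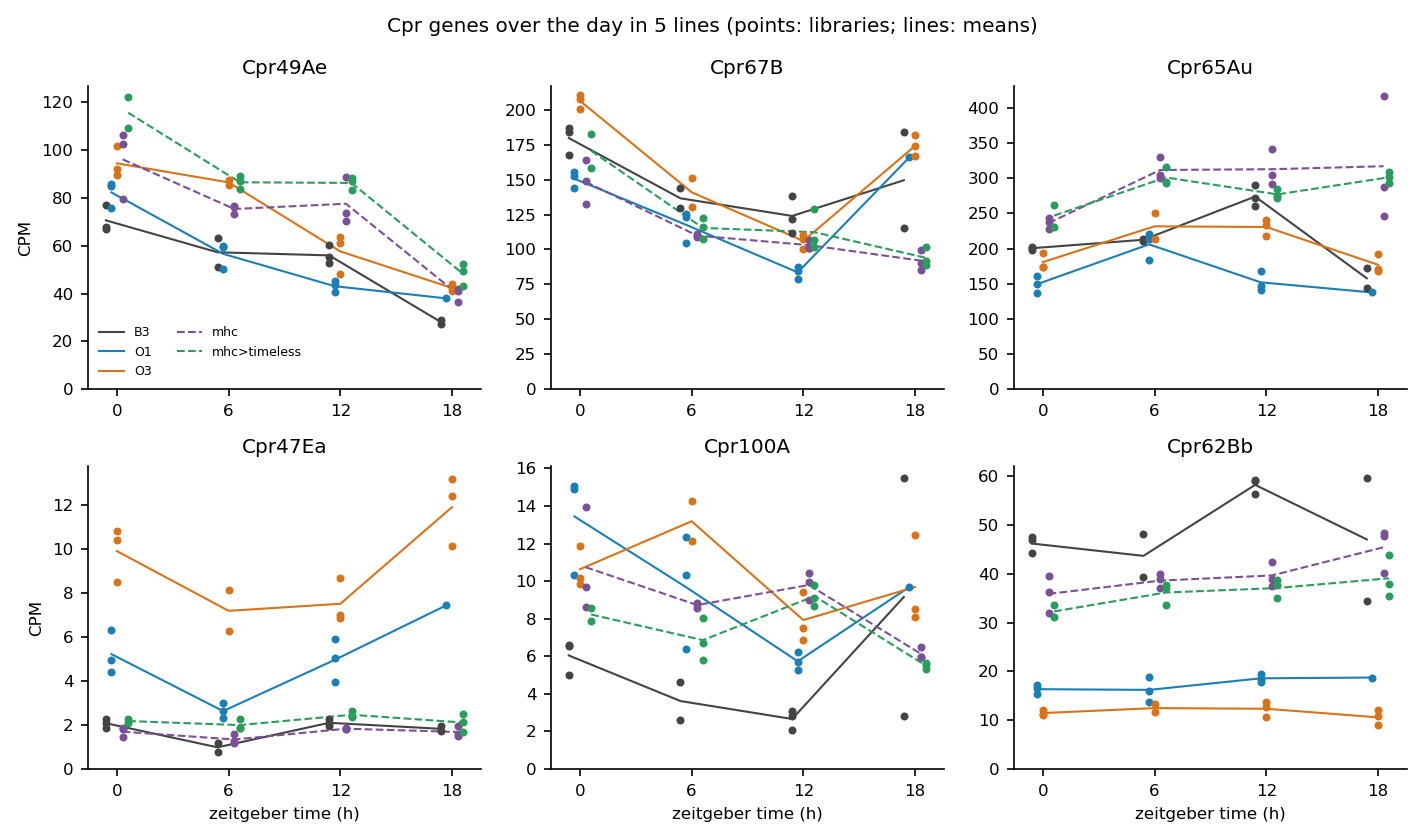
Level in CPM (vertical axes, from 0) of 6 Cpr genes against zeitgeber time in hours, with 1 point per library and lines through the means of B3, O1 and O3 (solid) and of mhc and mhc>timeless (dashed). Cpr49Ae goes down from ZT0 to ZT18 in all 5 lines, and Cpr62Bb and Cpr47Ea separate the 3 strains at every time.

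Other calls over the day were in members of both high and low level. Cpr73D was called in O1 and Cpr62Bb in mhc. Those calls were lost in 2 of 9 and 9 of 12 fits that left out 1 library (adjusted p up to 0.0662 and 0.18). Cpr47Ea was called in all 3 strains, lowest at ZT6 in each, with means from 0.987 to 2.10 CPM in B3, 2.63 to 7.43 CPM in O1 and 7.18 to 11.9 CPM in O3. Its B3 call was lost without the third library of ZT6 (adjusted p = 0.118) and its O3 call without ZT18 (0.125). Cpr66D was called in B3 and O1 with its highest mean at ZT18, 57.5 and 36.6 CPM against lowest means of 37 and 24.1 CPM. The B3 call was lost without library 1 of ZT0 or library 3 of ZT18 (adjusted p up to 0.294) and without ZT18 (0.463), and the O1 call without library 3 of ZT0 or any 1 library of ZT12 (up to 0.0963). Cpr50Cb was highest at ZT6 in O1 and O3, with means of 1.01 and 0.835 CPM, and the calls were lost in 5 of 9 fits that left out 1 library in O1 (adjusted p up to 0.192) and without the third library of ZT6 in O3 (0.0543).

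In B3 at ZT18 the 2 libraries differed. Library 3 had the highest level of the 10 B3 libraries for 12 of the 38 tested members. The other 9 libraries had the highest for 0 to 7. This was not counted over all genes, so it cannot be read as particular to the Cpr genes. The values of library 3, chosen after they were seen, were 15.5 CPM for Cpr100A against 2.85 CPM in library 2. It held 24.6 CPM for Cpr97Eb, 1.4 CPM for Cpr64Aa and 2.76 CPM for Cpr97Ea against 0.0442 CPM. The call of Cpr97Ea over the day was lost without it (adjusted p = 0.404) and without ZT18 (0.304), and that of Cpr100A without the third library of ZT12 (0.0567). In mhc and mhc>timeless Cpr100A was lowest at ZT18 instead, with 5.95, 5.96 and 6.51 CPM and 5.64, 5.52 and 5.33 CPM.

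Between mhc>timeless and mhc, 7 of 39 members differed over the day, 3 higher and 4 lower (7.69 and 10.3%, against 8.68 and 9.75% of all 12727 genes). In each of the 7 the libraries of the 2 genotypes overlapped, and 4.09% of all genes called had no overlap. The member with the smallest p was Cpr60D, at 3.17 CPM in mhc>timeless and 4.50 CPM in mhc, a difference of -0.51 ± 0.06 (adjusted p = 1.8e-05). By time, mhc libraries held 5.32, 3.81 and 4.99 CPM at ZT0, 4.55, 5.02 and 4.09 CPM at ZT6, 4.47, 4.16 and 3.8 CPM at ZT12 and 5.09, 4.04 and 4.64 CPM at ZT18. The mhc>timeless libraries held 3.21 and 2.87 CPM, then 3.03, 2.65 and 3.29 CPM, then 2.68, 2.89 and 3.03 CPM, and 3.87, 3.86 and 3.57 CPM, so that at each time all of them lay below the mhc libraries.

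Cpr47Ea, Cpr49Aa and Cpr49Ae were higher in mhc>timeless, by 0.42 ± 0.08, 0.98 ± 0.20 and 0.22 ± 0.05. Their means were 2.19 against 1.64 CPM, 0.496 against 0.246 CPM and 84.1 against 72.2 CPM. Cpr100A was lower by -0.25 ± 0.07, a call lost without the third mhc>timeless library of ZT0 (adjusted p = 0.0561). Cpr51A and Cpr62Bb were lower by -0.12 and -0.14, and these calls were lost in 8 and 13 of the 23 fits that left out 1 library (adjusted p up to 0.122 and 0.11). Cpr51A was also lost without the photoreceptor-rich libraries (0.0794) and without the filter on low counts (0.0505).

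No member was called by edgeR for a difference between the genotypes in its course over the day, where 0.126% of all genes, 16 in number, were called. At an unadjusted p under 0.05 there were 2 such members, and DESeq2 called 0 members at its adjusted p, with 609 calls among all genes. The 2 libraries rich in photoreceptor genes also stood apart in 3 of the 39 members, chosen after their values were seen. How many of all genes did so was not counted, so this number cannot be read as particular to the Cpr genes. Cpr72Ec, the other corneal lens protein gene of the family, had 8.74 CPM in the mhc library and 30.4 CPM in the mhc>timeless library, against 0.0715 to 0.513 CPM in the other 21. Cpr11B had 2.44 and 2.36 CPM against 0.0709 to 0.45 CPM, and Cpr76Bc 2.08 and 1.88 CPM against 0.695 to 1.63 CPM. Cpr66D did not rise with them, at 103 and 58.5 CPM. The call of Cpr72Ec over the day in mhc>timeless was lost without the photoreceptor-rich libraries (adjusted p = 0.431).

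**Figure D5:**
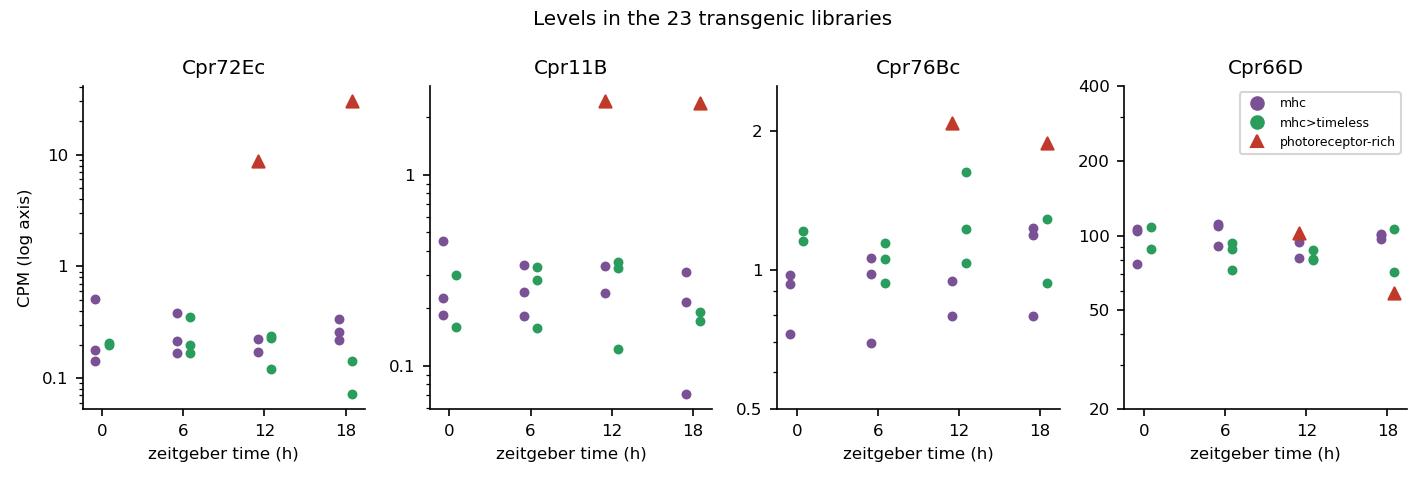
Level in CPM (vertical axes, logarithmic) of 4 Cpr genes in the 23 libraries of mhc and mhc>timeless against zeitgeber time in hours, with triangles for the 2 photoreceptor-rich libraries. Cpr72Ec, Cpr11B and Cpr76Bc are highest in those 2 libraries, and the corneal lens protein gene Cpr66D lies within or below the range of the others.

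In the age experiment, Cpr66Cb and Cpr56F, members of low level chosen after their values were seen, were higher in each of the 4 testis-rich libraries than in any other library. Such genes were not counted among all genes, so this cannot be read as particular to the Cpr genes. In the testis-rich libraries Cpr66Cb had 0.644 and 2.61 CPM in O3 and 1.38 and 0.958 CPM in O1, and Cpr56F had 0.909 and 1.25 CPM in O3 and 0.477 and 0.599 CPM in O1. The highest values elsewhere were 0.388 CPM for Cpr66Cb and 0.317 CPM for Cpr56F, and the remaining young O3 library held 0.14 and 0 CPM. Both members were called lower at 6 weeks in O3. Without the testis-rich libraries the Cpr66Cb call was lost (adjusted p = 0.141), as was its call in O3 against B3 at 1 week (0.265), and Cpr56F was no longer tested. The Cpr56F call was also lost in 4 of 6 fits that left out 1 library (adjusted p up to 0.0962).

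Cpr92A, also chosen after its values were seen, was called lower at 6 weeks in O3 as well, with 0.265, 1.22 and 0.14 CPM in the young libraries. That call was lost in 4 of 6 fits that left out 1 library (adjusted p up to 0.378) and without the testis-rich libraries (0.829). Cpr67Fa2 was higher than in B3 at 1 week in O1, a call lost without the testis-rich libraries (0.412) and in 3 of 6 fits that left out 1 library (up to 0.0567). It may share reads with its near-identical copy Cpr67Fa1, so its value is uncertain.

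The Cpr genes were set beside the other parts of the cuticle pathway, which are cuticle proteins of other families, enzymes of chitin, enzymes that harden and colour cuticle, and hormone-regulated transcription factors. The shares of all genes called, given above for each comparison, are the background for these counts: with age 21.8 and 20% rose and fell in B3, 10.4 and 12.4% in O1, and 22.8 and 27.4% in O3. Of 16 tested genes of other cuticle protein families, 3 rose and 5 fell with age in B3, 3 rose and 4 fell in O3, and the single call in O1 was a fall. The larval cuticle protein gene Lcp65Ag2 changed by -1.82 ± 0.33 in B3, and obst-A, which encodes a chitin-binding protein of the cuticle matrix, by -0.75 ± 0.16 in O1 and -1.04 ± 0.16 in O3. Of 28 chitin genes, 11 rose and 6 fell in B3, 3 and 5 in O1, and 13 and 9 in O3, and the chitinase gene Cht7 changed by -1.72 ± 0.20 in B3. Of 20 sclerotization and pigmentation genes, 4 rose and 4 fell in B3, 3 and 3 in O1, and 5 and 4 in O3. The gene b, for the aspartate decarboxylase that supplies beta-alanine for tanning, changed by -0.49, -1.31 and -1.38 in the 3 strains. Of 20 hormone response regulators 5, 3 and 6 fell in B3, O1 and O3, among them the juvenile hormone receptor gene gce, by 0.68, 0.21 and 0.26.

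Over the day, 9 of 30 genes of other cuticle protein families were higher and 8 lower in O1 than in B3 (28.6 and 27.6% of all genes), and 9 and 6 in O3 (31.3 and 29.4%). In mhc>timeless 6 were higher and 1 lower than in mhc (8.68 and 9.75% of all genes), with obst-B higher by 0.57 ± 0.05 and TwdlT, of the Tweedle family, by 0.35 ± 0.06. Chitin genes were called over the hours of the day in 7, 10, 11, 12 and 12 of 28 cases in B3, O1, O3, mhc and mhc>timeless, against 11.2, 10.9, 17, 22.6 and 19.1% of all genes, and the 8 core clock genes in 7 cases in each line.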

How the data were processed

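Stranded mRNA libraries were made from Trizol-extracted RNA of skeletal muscle, per the labels' protocols. The authors deposited raw read counts per gene for each library, and the submitters' processing notes name BWA, STAR, HTSeq and the build dm3. Their roles, versions, gene models and use of strand are not stated there.

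The 5 lines of each table that name no gene were left out. Reads assigned to no gene were 13 to 27.9% of each library in the age experiment, 7.11 to 16.5% in the strain day course and 7.12 to 10.2% in the transgenic one. Each experiment was fitted separately with edgeR 4.0.16 in R 4.3.3, using its filter on low counts by group, TMM scaling (factors of 0.891 to 1.09), a mean per group and the quasi-likelihood test. P-values were adjusted over all 12445, 12295 and 12727 genes tested, and courses over the day were tested jointly over the 4 times. CPM were computed from the counts and the scaled totals, and the floor of 3 counts covers counting error only. No pair of replicate libraries was a duplicate, since chi-square per degree of freedom was at least 12.1. Gene lengths and chromosome arms came from the BDGP6 annotation, in which all 70 members were found. The scripts were tested on simulated counts with known changes.

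Named with values were the 8 most abundant members of each experiment, up to 5 called members per direction and comparison (up to 6 for joint tests) by smallest p, and their chromosome neighbours, and at most 4 genes per pathway list and comparison. Members named outside this rule are marked as chosen after their values were seen. The members and the lists were chosen with earlier results of these data known. Alternatives were DESeq2 1.42.0, its scaling factors (RLE), no filter, a replicate block, thinned counts, the day course without ZT18 and each library left out in turn. After the data were seen, fits without the libraries rich in photoreceptor or in testis and accessory gland genes were added. Sequences are not used here.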

Additional observations from a re-analysis of the deposited data

Results flagged for a closer look

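Members of the Cpr family that differed between strains in their change with age are given here, as log2 differences of the age change from that in B3, from edgeR's quasi-likelihood test. In O1 the age change was more negative than in B3 for Cpr49Ac by -2.62, Cpr66D by -2.51, Cpr62Bc by -2.42, Cpr47Ee by -1.12, Cpr47Ef by -0.71 and Cpr62Bb by -0.70. It was more positive for Cpr97Eb by 1.46 and Cpr65Au by 0.49. In O3 it was more negative for Cpr62Bc by -2.41, Cpr66D by -1.75, Cpr62Bb by -1.01, Cpr47Ef by -0.92 and Cpr47Ee by -0.88, and more positive for Cpr97Eb by 1.48, Cpr65Au by 0.81, Cpr60D by 0.64 and Cpr73D by 0.56. Both sets share the B3 libraries. The age change of Nc73EF, which overlaps Cpr73D and may share reads with it, differed from that in B3 by 1.42 in O3. In O3 the calls of Cpr73D, Cpr60D and Cpr47Ee were lost in 4, 7 and 7 of the 12 fits that left out 1 library, with adjusted p up to 0.0601, 0.0805 and 0.0743. In O1 the calls of Cpr49Ac and Cpr47Ef were lost in 5 and 9 of 12 such fits (up to 0.059 and 0.0956). Without the testis-rich libraries the O3 calls of Cpr73D, Cpr60D and Cpr62Bc were lost as well (adjusted p = 0.243, 0.103 and 0.0828), as was the O1 call of Cpr47Ef (0.0819).

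Cpr65Au and Cpr49Ae differed between the strains in their course over the day, with adjusted p = 0.0176 and 0.0297 by the joint test of edgeR over O1 and O3 against B3.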

How the results depend on the processing

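Of 196 pairs of a called member and a comparison, 125 were called again in every fit that tested them. These fits include those with 1 library left out. No pair with a log2 change reversed its direction in them, and the joint tests over the times of day give no direction. Some fits did not test a member, such as Cpr56F with age in O3 without the testis-rich libraries, where the young library left holds 0 CPM against a mean of 0.047 CPM at 6 weeks. The testis-rich libraries moved the counts of called members in 3 comparisons: without them the count was 11 instead of 18 for age in O3, and 6 instead of 11 for O1 and for O3 against B3 at 1 week, where groups are left with 1 library. DESeq2 called 5 members and the fit without ZT18 called 1 for the course over the day between strains, against 2, and DESeq2 called 7 for the course in mhc>timeless, against 4. With 1 library left out, the counts ran from 7 to 11 for O1 against B3 at 1 week (main count 11), 5 to 8 for the course in O1 (8), 0 to 5 for the course between strains (2) and 4 to 8 for mhc>timeless against mhc (7). Calls among all genes for the course between strains ran from 119 to 1044 in the same fits. The libraries whose absence moved these counts by over 1.5 times were B3 and O1 library 2 at 1 week (7 each), and O1 libraries 1 and 2 of ZT12 for the course in O1 (5 each). For the course between strains they were B3 library 3 of ZT12 (0), B3 library 1 and O1 library 1 of ZT12 and O3 library 3 of ZT6 (1 each), and B3 library 2 of ZT18 (5). For the genotypes it was mhc>timeless library 3 of ZT0 (4).

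Among all genes, DESeq2 called 1144 against 239 for the course between strains and 609 against 16 for that between genotypes. The fit without ZT18 called 791 against 1382 for the course in B3. Without the testis-rich libraries 3034 against 6238 genes were called for age in O3, 2448 against 4475 for O3 and 2907 against 2956 for O1 against B3 at 1 week, and 4078 against 1775 for the difference in age change between O1 and B3. The cause of these shifts was not tested.

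The labels do not say whether replicate numbers pair the libraries. The median correlation of same-numbered libraries' deviations from their group means was -0.086, 0.0135 and 0.0101 in the 3 experiments. Of these pairs, 17 of 45, 26 of 136 and 27 of 77 were over 0.1. Single pairs ran from -0.783 to 0.817, -0.518 to 0.541 and -0.418 to 0.643, so the medians cannot exclude pairing among some groups. With replicate number as a block, 180 of the 196 calls remained and 16 were lost. The depth allows no statement on the 25 members that passed no filter.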

Other observations

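The spread between replicate libraries differed among the members. For Cpr65Au the median coefficient of variation within a group was 5.65% in the age experiment, 7.28% in the strain day course and 4.73% in the transgenic one, and for Cpr67B it was 7.34, 5.77 and 7.43%. For Cpr49Ab, a gene of the 49A run chosen after its values were seen, it was 55.6, 54.7 and 93.9%. The 3 young O1 libraries held 29, 8.27 and 6.77 CPM of Cpr49Ab, and the young O3 libraries 5.3, 0.557 and 3.01 CPM. Cpr47Ef varied by 12.3, 20.6 and 13.1%.

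Among the other cuticle protein genes, TwdlT of the Tweedle family was lower in both O1 and O3 than in B3 in each comparison. The differences in O1 were -1.33 at 1 week, -1.76 at 6 weeks and -2.31 over the day, and in O3 they were -1.52, -2.04 and -2.26.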
